A study of Mus musculus with 45 samples.

Results

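The sites described here are those at which binding of the transcriptional repressor Capicua (CIC) was called in the cerebellum of mice whose polyglutamine-expanded ATXN1 carries 2 substitutions in its CIC-contact surface. The members are all 860 peaks on chromosomes 1 to 19 of the list called for Atxn1 154Q[V591A;S602D]/2Q mice against mice lacking CIC, after the 986 summit lines were collapsed to 1 entry per peak. The deposited list held 922 peaks, of which 16 lay on X, 42 on Y and 4 on unplaced scaffolds and were not used here. Together, the 3 peak lists of the study held 7213 peaks.

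CIC binding was profiled by CUT&RUN, which uses a tethered nuclease to release the DNA that an antibody-bound protein covers, and the comparison addresses where CIC sits when expanded ATXN1 cannot contact it. All mice were on a C57BL/6 background and 10 weeks old. The 154Q[V591A;S602D] animals (n = 3) carry the V591A and S602D substitutions, introduced by CRISPR-Cas9 on the expanded 154Q knock-in allele, opposite a normal 2Q allele. The CIC KO animals (n = 4) are En1-Cre; Cic fl/fl and lose Cic in cells of the En1 lineage, which the study used as its negative control for the cerebellum. The WT (n = 4) and 154Q (n = 4) lists are used below only to show which of the 860 sites they also hold.

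CIC is an HMG-box protein that represses its target genes until RAS-ERK signalling relieves the repression. Its best known targets are the PEA3 group of ETS transcription factors and the feedback inhibitors of the same pathway. ATXN1, the protein expanded in spinocerebellar ataxia type 1, binds CIC through its AXH domain, and V591A and S602D lie in that domain.

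The libraries of each genotype were merged before peaks were called, so each peak has a single value and the variation among animals is unknown. Fold enrichment and −log10 q were also the values that made the list. They are therefore descriptions of the members. Intervals given with shares are 95% Wilson intervals and reflect only the counting of peaks or genes. At each summit, fold enrichment is the 154Q[V591A;S602D] pileup plus 1 divided by the background expected from CIC KO plus 1. The lowest −log10 q in the list was 1.30, just inside the authors' threshold of q = 0.05.

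The sequences at the leading sites are given first, since they show what the strongest peaks share and where they differ. All were read from the plus strand of GRCm38. The published CIC octamer has 4 spellings, TGAATGAA, TGAATGGA, TCAATGAA and TCAATGGA, and was searched on both strands. Capitals mark a match. The windows below span 50 bp on either side of the summit and belong to the octamer-bearing peaks among the 100 highest outside repeats whose window holds no UTR. They are a distal site on chromosome 11 (chr11:105353305-105353405), an intron of Spred1 (chr2:117123117-117123217), an intron of Clstn2 (chr9:97685750-97685850), the Etv1 promoter (chr12:38780730-38780830), an intron of Fos close to its start (chr12:85474579-85474679), and the promoters of Zdhhc5 (chr2:84715281-84715381), Spred2 (chr11:19925321-19925421) and Kcnb2 (chr1:15288071-15288171).
Distal chromosome 11: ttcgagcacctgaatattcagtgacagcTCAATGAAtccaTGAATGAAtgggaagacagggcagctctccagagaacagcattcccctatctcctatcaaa
Spred1 intron: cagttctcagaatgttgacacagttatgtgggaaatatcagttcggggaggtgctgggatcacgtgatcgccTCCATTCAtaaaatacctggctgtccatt
Clstn2 intron: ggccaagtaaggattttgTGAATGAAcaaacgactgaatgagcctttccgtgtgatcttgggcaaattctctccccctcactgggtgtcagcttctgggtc
Etv1 promoter: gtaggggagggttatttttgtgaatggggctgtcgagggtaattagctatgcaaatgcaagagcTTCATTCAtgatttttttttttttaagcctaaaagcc
Fos intron: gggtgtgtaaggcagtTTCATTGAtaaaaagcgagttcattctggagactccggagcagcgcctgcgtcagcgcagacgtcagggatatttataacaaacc
Zdhhc5 promoter: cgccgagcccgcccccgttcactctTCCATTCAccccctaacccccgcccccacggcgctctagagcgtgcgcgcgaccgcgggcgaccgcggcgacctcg
Spred2 promoter: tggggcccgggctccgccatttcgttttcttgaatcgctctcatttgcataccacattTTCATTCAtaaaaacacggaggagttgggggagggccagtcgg
Kcnb2 promoter: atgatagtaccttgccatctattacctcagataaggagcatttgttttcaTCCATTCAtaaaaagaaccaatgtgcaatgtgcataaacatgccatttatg

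The distal chromosome 11 window held 2 octamers of different spelling, 19 and 7 bp to the left of the summit by the position of the fourth base. Each other window held a single one. At the promoters of Etv5 and Dusp4, both established CIC targets, the octamer lay inside the peak but beyond 50 bp from the summit. The Etv5 stretch is chr16:22439790-22439940, with its octamer 104 bp to the right of the summit, and the Dusp4 stretch is chr8:34807011-34807221, with octamers 72 bp to the left and 100 bp to the right.
Etv5 promoter: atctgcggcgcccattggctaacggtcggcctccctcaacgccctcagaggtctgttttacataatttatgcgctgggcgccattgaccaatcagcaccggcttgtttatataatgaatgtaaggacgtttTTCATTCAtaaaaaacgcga
Dusp4 promoter: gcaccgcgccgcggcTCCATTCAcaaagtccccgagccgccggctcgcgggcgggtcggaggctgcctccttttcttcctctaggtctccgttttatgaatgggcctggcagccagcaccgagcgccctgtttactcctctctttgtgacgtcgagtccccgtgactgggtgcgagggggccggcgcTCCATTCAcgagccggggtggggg

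Other leading promoters held no octamer within 50 bp of the summit, and are shown because they rank high without one. The peaks of Hsd17b12 and Zbed4 held none anywhere, and that of Zswim4 held 1 away from the summit. In Hsd17b12 (chr2:94157995-94158095) and Zswim4 (chr8:84237169-84237269) capitals mark CCAAT on either strand. In Zbed4 (chr15:88751496-88751596), which had the highest fold enrichment of any promoter peak, they mark the GC box GGGCGG on either strand.
Hsd17b12 promoter: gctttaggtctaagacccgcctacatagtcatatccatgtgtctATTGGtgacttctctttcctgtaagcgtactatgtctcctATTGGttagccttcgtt
Zswim4 promoter: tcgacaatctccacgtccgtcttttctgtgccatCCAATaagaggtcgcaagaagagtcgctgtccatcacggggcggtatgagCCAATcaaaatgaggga
Zbed4 promoter: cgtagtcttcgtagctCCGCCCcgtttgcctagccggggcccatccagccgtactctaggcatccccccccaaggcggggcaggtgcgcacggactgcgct

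The list also held peaks in repeats, and these led the ranking. Of the 860 peaks, 44 (5.12%, 3.83 to 6.80%) had more than 50% of their bases soft-masked as repeats. They took 7 of the 10 highest places by −log10 q, including the first 5. The highest of all spanned chr14:124801600-124802193.

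All 9 peaks with at least 5 copies of the telomere repeat TTAGGG, on either strand, within 50 bp of the summit were among the 44. The summits of the 7 among the 10 highest lay between 100.1 and 100.3 kb from a chromosome end in the assembly. Their fold enrichment was low for their rank, 1.97 to 3.22. The median background from CIC KO was 576 fragments over those of the 9 peaks for which it could be recovered. Of the 44 repeat peaks, the WT list also held 19. The 154Q list held 1, but it was deposited after removal of repeats, so that count was fixed by its processing. These 44 peaks are kept in the counts of all 860, and results are also given for the 816 peaks outside repeats.

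Outside repeats, the highest peak was at the Etv5 promoter. Etv5 encodes a PEA3 ETS factor. The pileup there was 568 fragments against a background of 123, a fold enrichment of 4.58 and a −log10 q of 180. The Spry4 promoter, which drives a feedback inhibitor of receptor tyrosine kinase signalling, had 418 fragments against 96.7 (fold 4.29). The distal chromosome 11 site had 292 against 49.3 (fold 5.83), and the Hsd17b12 promoter, of a fatty acid elongation enzyme, had 300 against 57.7 (fold 5.13). The lowest background in the list was 5.28 fragments, far below that of each of these leading sites.

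**Figure D1:**
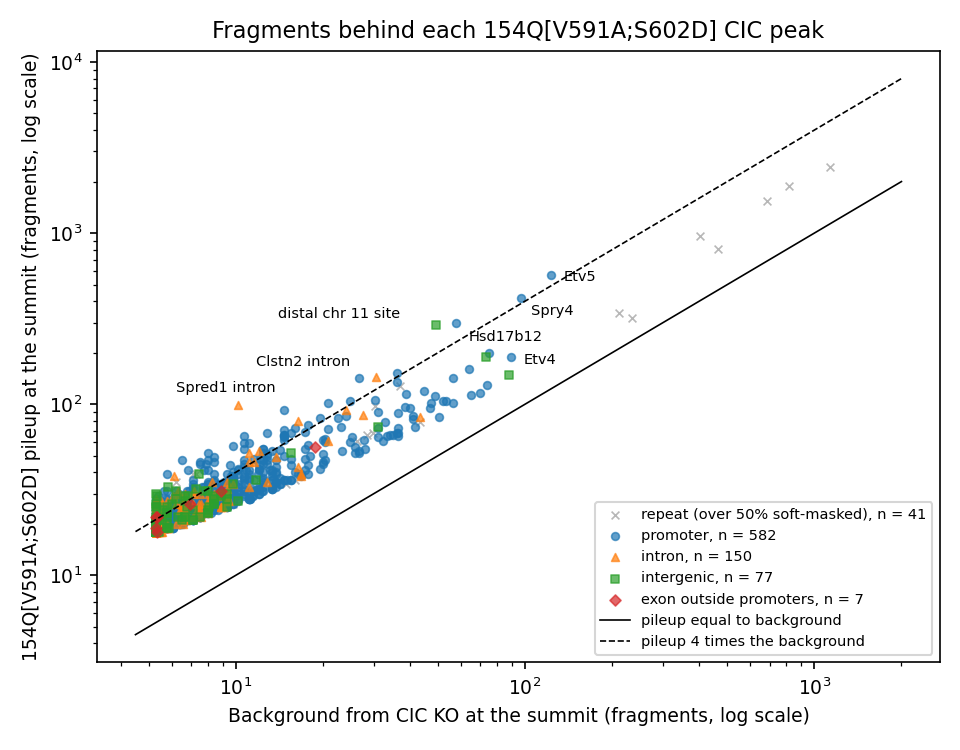
Pileup of 154Q[V591A;S602D] fragments at each summit (y, log scale) against the background expected from CIC KO (x, log scale) for the 857 peaks whose pileup was recovered, one point per peak. Peaks with a high pileup, such as Etv5 (568 fragments against 123), also have a high background. The 5 points farthest to the upper right are peaks with telomere repeats, while the medians over repeat peaks are 33 fragments and a background of 7.92.

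High pileups went with high backgrounds across the list. At 64 of the 857 peaks with a recovered background (7.47%) it was more than 5 times its lowest value. Etv4, a second PEA3 factor, is an example among the targets. Its promoter had 188 fragments against 89.6, so it ranked 60 by −log10 q with a fold enrichment of only 2.09. The peak with the highest fold enrichment of all was the intronic Spred1 site at chr2:117122830-117123388, with 99 fragments against 10.2 (fold 8.92).

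Most members were weak. The median pileup was 26 fragments and the median background 7.10 fragments. The fold enrichments had a median of 3.16 and quartiles of 2.84 and 3.57, and 414 peaks rested on at most 25 fragments. A −log10 q above 10 was reached by 87 peaks and above 50 by 12 peaks. Peaks were narrow, with a median width of 198 bp (range 130 to 1229 bp), and 105 had more than 1 summit.

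The question for the members is which kind of site they occupy. A summit within 1 kb of an annotated start site was called a promoter peak, and 585 of 860 peaks (68.0%, 64.8 to 71.1%) were of this class. A further 159 were intronic (18.5%), and 12.7% were intergenic. The remaining 7 lay in coding exons (4), 3′ UTRs (2) and a 5′ UTR (1). Of the 44 repeat peaks, 32 were intergenic and 3 at promoters, and outside repeats promoters made up 71.3% (68.1 to 74.3%). Median fold enrichment was alike between classes outside repeats, 3.10 at promoters, 3.32 in introns and 3.18 between genes. The median background was 7.78 fragments at promoters, 5.58 in introns and 6.21 between genes.

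Promoter summits clustered just upstream of the start site. The median position was 60 bp upstream, and 379 of 585 (64.8%, 60.8 to 68.5%) lay upstream. In total 433 (74.0%) were within 250 bp, and only 63 (10.8%) were more than 500 bp away. A protein-coding start site was within 1 kb of 555 of the 585. The other 30 had only non-coding start sites nearby, among them Mir22hg, the host gene of a microRNA, at rank 45.

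**Figure D2:**
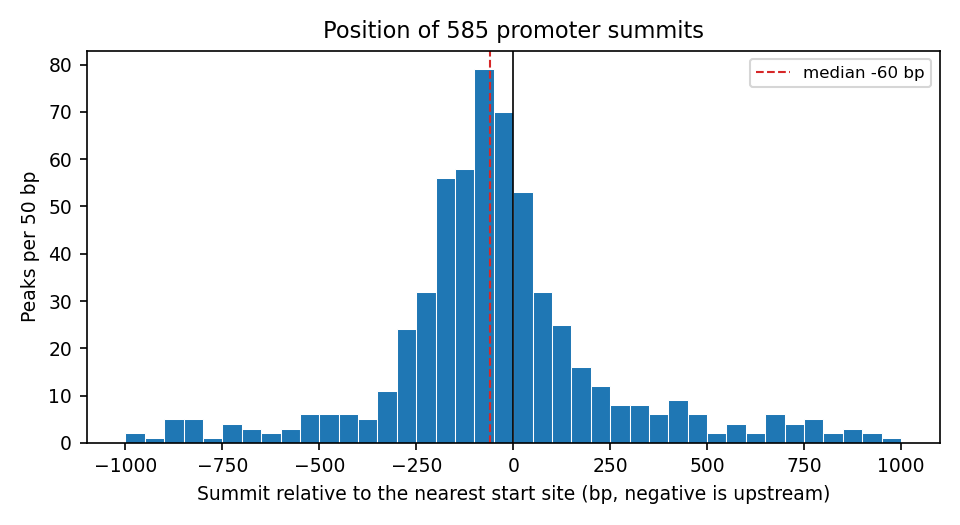
Number of promoter peaks (y, per 50 bp) by the distance of the summit from the nearest start site (x, in bp, negative is upstream) for the 585 promoter peaks. The dashed line is the median, 60 bp upstream, and the counts fall off within 250 bp on both sides.

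These promoters were rich in CpG. A window of 250 bp on either side of the summit with more than 50% GC and an observed to expected CpG ratio over 0.6 was found at 457 of 585 promoter summits (78.1%, 74.6 to 81.3%), against 36 of the 275 other peaks (13.1%, 9.61 to 17.6%). At all 20807 protein-coding gene starts the share was 46.4%. Protein-coding start sites on both strands within 1 kb, that is divergent promoters, were found at 77 promoter peaks (13.2%, 10.7 to 16.1%) and at 10.3% of all gene starts. Ccdc47 and Ddx42, Blvrb and Sptbn4, and Lin52 and Aldh6a1 are pairs that shared such a peak. The CpG-rich share was thus well above that of all gene starts, whereas the divergent share was a little above it. The part of CpG content in the choice of promoters was not tested.

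At the leading promoters, genes of varied function stood beside the RAS-ERK targets. Hbp1, an HMG-box repressor of growth genes, had 142 fragments against 26.6 (fold 5.18). Ung, a uracil DNA glycosylase, had 152 against 36.1 (fold 4.13). Sec16a, which organises endoplasmic reticulum exit sites and shares its promoter with a non-coding transcript, had 92 against 14.6 (fold 5.95). These were all among the 20 highest peaks. Rhebl1, which encodes a small GTPase related to RHEB, had 102 against 20.9 (fold 4.71). Zswim4 had 200 fragments but a background of 75.0, and its fold enrichment was 2.65. Prcc had 65 against 10.6 (fold 5.67). Of these 6 promoters, Zswim4 had the highest pileup and the lowest fold enrichment.

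Away from promoters, the 8 highest intronic peaks outside repeats lay in Spred1, Clstn2, Etv5, Brinp2, Clec11a, Epc2, Ppp2r3d and Tob2. The Clstn2 site, in a gene for a synaptic calsyntenin, had 145 fragments against 30.6 (fold 4.62) and lay 244355 bp from the nearest start site. The Tob2 site, in a gene for an antiproliferative protein, had 38 fragments against 6.13 (fold 5.47). Among the intergenic peaks outside repeats, the second after the distal chromosome 11 site was at chr8:125317648-125317963, 90465 bp from the start site of the predicted gene Gm16237, with a fold enrichment of 2.55. The third lay 1197 bp upstream of Foxo3, a forkhead factor of the insulin pathway, with 39 fragments against 7.46 (fold 4.73). A peak 3912 bp upstream of Spred2 had 29 fragments against 5.32 (fold 4.74). Of these intergenic sites, those near Foxo3 and Spred2 lay upstream of a protein-coding gene and the first 2 were distal.

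Peaks were assigned to a protein-coding gene when the summit lay in its body or up to 5 kb upstream, the distance used by the study. Of 20780 protein-coding genes, 815 had a peak (3.92%), and 608 (2.93%) had one within 1 kb of a start site. A gene list is read below against these shares. More than 1 peak was found at 60 genes and 3 or more at 12, led by Ppp2r3d and the predicted readthrough gene Gm20388 with 4 each. Etv5, Spred1, Etv1 and Spred2 had 3 each, as had Crlf2, Peg3 with the overlapping Usp29, Ptprj, Fat2 and Garnl3.

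The list of CIC targets and RAS-ERK feedback genes was written with earlier results of these data known, so its share is only a description. Of its 20 genes, 10 had a peak (50%, 29.9 to 70.1%), all with one at a promoter. They were the PEA3 factors Etv1, Etv4 and Etv5, the pathway inhibitors Spry4, Spred1 and Spred2, the MAP kinase phosphatases Dusp4 and Dusp5, the constitutively active receptor Gpr3 and the circadian repressor Per2. Their 19 peaks had a median fold enrichment of 3.91 and a median pileup of 68 fragments, against 3.16 and 26 over all peaks outside repeats. The median background was also higher, 11.5 against 7.10 fragments. No peak was assigned to Spry1, Spry2, Spred3, Dusp6, Shc3, Ccnd1, Ccnd2, Fosl1, Myc or Ptpn9.

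Etv1 and Etv5 carried 3 sites each and Etv4 a single one. At Etv1, the promoter peak shown above had 73 fragments against 16.0 (fold 4.36). A second promoter peak had its summit 704 bp upstream and 161 fragments against 63.9 (fold 2.50), and an intronic peak 5288 bp downstream had 27 against 5.49 (fold 4.31). At Etv5, intronic peaks 1153 and 7437 bp downstream of the start site had fold enrichments of 4.65 and 3.49, and the more distant one held 2 octamers. The single Etv4 peak held 4 octamers within its 238 bp, the most of any listed target. Each PEA3 gene thus had at least 1 octamer inside a promoter peak.

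The inhibitors differed in where they were marked. Spry4 had a single peak centred on its start site. At Spred1 the intronic site 1529 bp downstream of the start led, while its promoter peaks, 891 and 474 bp upstream, had fold enrichments of 3.51 and 2.90. At Spred2 the summit with the octamer lay 929 bp downstream of the start site (46 fragments against 8.43, fold 4.98), and one closer to the start, 122 bp upstream, had a fold enrichment of 3.05. Dusp4 had 134 fragments against 35.9 (fold 3.65). Dusp5 had 48 against 11.5 at a summit 64 bp upstream of its start (fold 3.91), and Gpr3 had 104 against 24.8 (fold 4.06). Per2 had the lowest fold enrichment of the 19 target peaks, 1.87, with 68 fragments against 35.9.

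For the kinase cascade itself the count was near the share of all genes, 3.92%. None of 25 genes for its core members, among them Hras, Braf, Map2k1 and Sos1, had a peak, so that the interval reaches up to 13.3%. Of 17 immediate early genes, which the cascade switches on, 5 had a peak (29.4%, 13.3 to 53.1%). The Fos peak 739 bp downstream of the start had 76 fragments against 17.7 (fold 4.11) and the one 241 bp upstream had 47 against 7.99 (fold 5.34). Fosb had 34 fragments against 7.99 (fold 3.89), and the higher of the Egr1 peaks had 42 against 12.0 (fold 3.31). Jun, with 19 fragments, and Nr4a3, with 30 fragments 1587 bp upstream of its nearest start site, were weaker. Fos therefore had the 2 highest-ranked peaks of this group, at ranks 36 and 52.

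Genes of the CIC complex and of its partners were marked in 4 of 10 cases (40.0%, 16.8 to 68.7%). Cic itself had a promoter peak with 112 fragments against 48.9 (fold 2.26). It had a second peak at a coding exon (chr7:25285512-25285691), with 56 fragments against 18.8 (fold 2.88), which was in neither the WT nor the 154Q list. The control animals carry a Cic deletion, and its part in peaks within the gene was not tested. Atxn1 had a peak of 19 fragments in a 5′ UTR (chr13:45568460-45568765), where the smallest pileup in the list was 18, and it too was in neither other list. The corepressor scaffold Sin3a had 89 fragments against 36.4 at its promoter (fold 2.41), and the BTB zinc finger gene Zbtb5 had 96 against 38.6 (fold 2.45). No peak was assigned to Atxn1l, Hdac1, Hdac2, Hdac3, Rfx1 or Zkscan1.

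Of 18 ETS factor genes, Etv1, Etv4, Etv5 and Elk3 had a peak, the last an intronic site of 26 fragments (fold 3.15). Of 21 negative regulators of growth signalling, Hbp1 and Tob2 had one (9.52%, 2.65 to 28.9%). Of 22 ataxia genes, 4 had a peak (18.2%, 7.31 to 38.5%). Besides Atxn1 these were Cacna1a, the pore subunit of the P/Q calcium channel, with 22 fragments upstream of its start site, the sodium channel modulator Fgf14, with 27 fragments in an intron (fold 4.14), and the ubiquitin ligase gene Stub1, whose promoter peaks had fold enrichments of 3.62 and 3.34.

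Few cell type genes of the cerebellum had a peak, and the share of all protein-coding genes, 3.92%, lay below the intervals for Purkinje and granule cell genes and within the others. These lists group genes and say nothing of which cells gave the signal. Of 24 Purkinje cell genes, 3 had a peak (12.5%, 4.34 to 31%), among them Inpp5a, an inositol phosphate phosphatase with 64 fragments against 14.6 (fold 4.16) and Cacna1a. Of 16 granule cell genes, 4 had one (25%, 10.2 to 49.5%), which were Zic2, Cbln3, Fat2 and Slc17a7. Their highest pileup was 31 fragments, in the 3′ UTR of Cbln3. None of 12 astroglial and none of 12 oligodendrocyte lineage genes had a peak, each with an interval from 0 to 24.2%, which holds the share of all genes. Of 12 microglial and endothelial genes, Cx3cr1 alone had one, of 18 fragments.

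**Figure D3:**
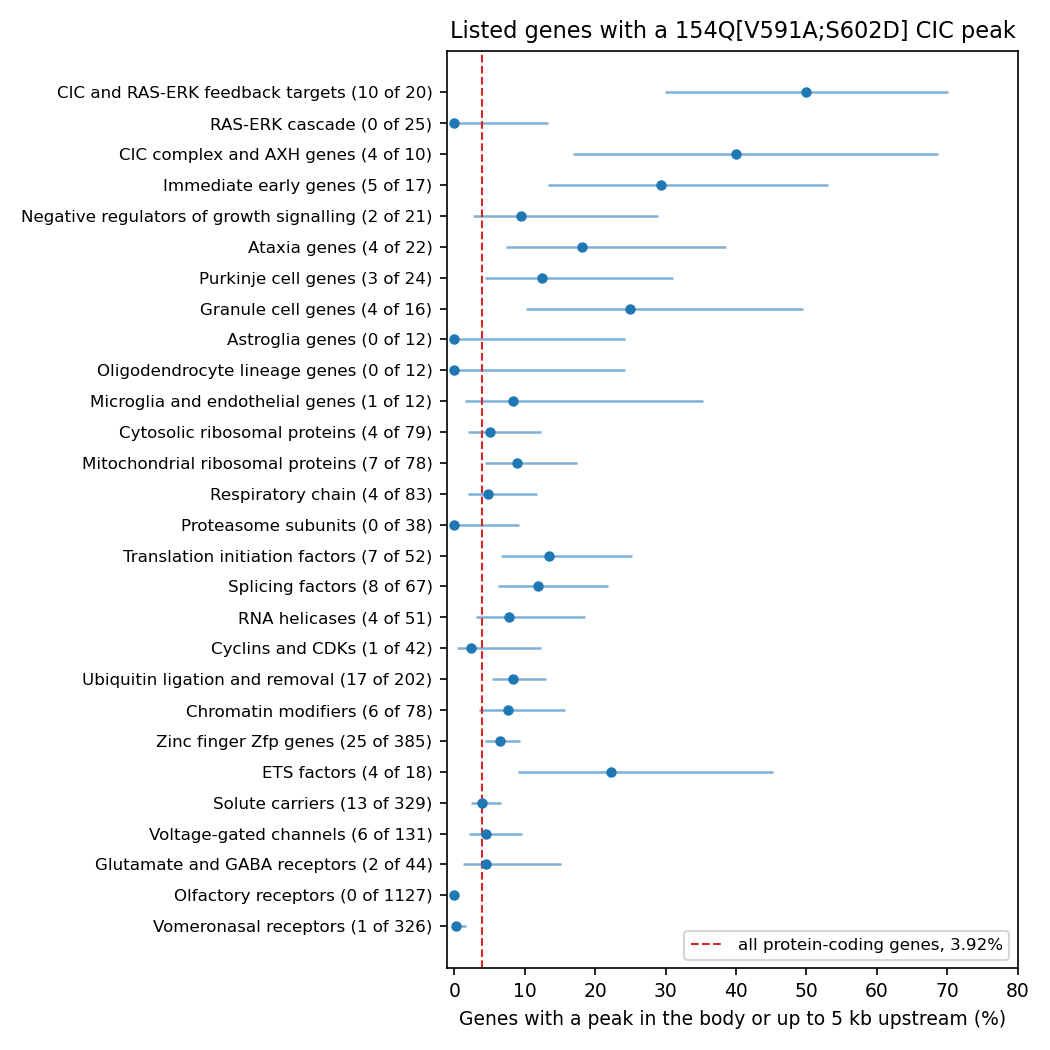
Share of each listed gene group with a peak in the gene body or up to 5 kb upstream (x, in percent, points with 95% Wilson intervals), with counts beside each name. The dashed line is the share of all protein-coding genes, 3.92%, and the interval of the CIC target list, 29.9 to 70.1%, lies farthest above it. The lists were chosen with earlier results of these data known, so the shares are descriptions.

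Housekeeping groups varied, some close to the share of all genes and some with intervals above it. Of 79 cytosolic ribosomal protein genes, 4 had a peak (5.06%), led by Rpl41 with 65 fragments against 14.6 (fold 4.22), beside Rps19, Rpl27 and Rps26. Of 78 mitochondrial ribosomal protein genes 7 had one (8.97%, 4.42 to 17.4%), with Mrps14 the highest in rank at 30 fragments. Of 83 respiratory chain genes 4 had one (4.82%), led by Uqcrq of complex III with 71 fragments against 14.6 (fold 4.60), and none of 38 proteasome genes did. For translation initiation factors the count was 7 of 52 (13.5%, 6.68 to 25.3%), led by Eif5a at fold 3.76, and for splicing factors 8 of 67 (11.9%, 6.18 to 21.8%), led by Hnrnph1 at fold 3.84. These lists differ in how many members have CpG-rich promoters, and that was not adjusted for.

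Larger families gave narrower intervals. Of 202 ubiquitin ligation and removal genes 17 had a peak (8.42%, 5.32 to 13.1%), led by Usp36 with 68 fragments against 15.5 (fold 4.17), then Ube2n and Usp29. Of 385 Zfp zinc finger genes 25 had one (6.49%, 4.44 to 9.41%), led by Zfp41 and Zfp317, with fold enrichments of 3.88 and 4.20. Of 78 chromatin modifiers 6 had one, among them Chd4, Kdm1b and Hdac4, the last with 104 fragments against 53.2 (fold 1.94). RNA helicases gave 4 of 51, led by Ddx42 at fold 5.90, and cyclins and CDKs 1 of 42, Cdk19. Of 329 solute carriers 13 had a peak (3.95%), led by Slc37a4 and Slc3a2, and of 131 voltage-gated channels 6 did (4.58%), led by Kcnb2 at fold 4.32. Glutamate and GABA receptors gave 2 of 44, among them Gabrd. None of 1127 olfactory receptor genes and 1 of 326 vomeronasal receptor genes, Vmn1r4, had one.

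Sequence at the summits was not used to call the peaks. The octamer was present within 50 bp of 31 of 860 summits (3.6%, 2.55 to 5.07%) and in 27 of 1720 windows of the same length 500 bp to either side (1.57%, 1.08 to 2.27%). Over the starts of all protein-coding genes, in windows centred 60 bp upstream, it was present in 1.00% (0.878 to 1.15%). Among the 100 highest peaks outside repeats 12 held it (12%, 7.0 to 19.8%), against 2.50% of their flanks, and among the other 716 peaks 18 did (2.51%, 1.60 to 3.94%), against 1.47% of theirs. It was thus concentrated at the head of the list, with 11 of the 50 highest holding it and 1 of the next 50. The 31 peaks were 17 at promoters, 9 in introns and 5 between genes, and the WT list also held 26 of them and the 154Q list 25.

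Of the 38 octamers counted at summits, 14 read TGAATGAA, 13 TGAATGGA, 8 TCAATGAA and 3 TCAATGGA, and 20 lay within 25 bp of the summit. Beyond the sequences shown above, octamers were found at the promoters of the small Maf factors Maff (83 fragments against 19.5) and Mafg (57 against 9.76) and of Hsd11b1, which regenerates active glucocorticoid (68 against 12.9). An intron of Rasgef1c held 5 overlapping or adjacent octamers within 50 bp of a summit of 25 fragments, shown here, and chosen after its values were seen, because no other summit window held as many (chr11:49938923-49939023).
Rasgef1c intron: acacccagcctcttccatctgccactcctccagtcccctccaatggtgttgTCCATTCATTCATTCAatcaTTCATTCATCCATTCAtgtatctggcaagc

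At promoter summits, the shorter GC box and CCAAT words were more frequent than the octamer, and no allowance was made for word length. Each was searched by exact letters on both strands, and no motif contains the letters of another. The GC box GGGCGG was present at 40.7% of promoter summits (36.8 to 44.7%), 16.5% of their flanks and 30.5% of all gene starts. CCAAT was present at 16.8% (13.9 to 20%), 8.03% and 21.2%. The ETS site CCGGAAG was present at 6.15% (4.48 to 8.40%), 1.37% and 5.04%. The GC box share exceeded that of all gene starts beyond counting error, that of CCAAT was lower, and the ETS share overlapped it. The median GC of the windows was 62.9% at promoter peaks outside repeats and 57.4% at all gene starts. The part of base composition in these shares was not tested. CCAAT was more frequent at the head of the list, at 30 of the 100 highest peaks outside repeats against 6.00% of their flanks.

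The remaining motifs were rare at promoter summits and close to their share of all gene starts. The CRE TGACGTCA was at 0.855% against 1.34%, the NRF1 core GCGCATGC at 2.22% against 1.79%, the YY1 site AAGATGGC at 0.513% against 0.558% and the E-box CACGTG at 2.91% against 3.62%. The RFX element GTTGCCA was at 1.37% against 1.61%. For all 5, the interval at promoter summits included the share over all gene starts.

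**Figure D4:**
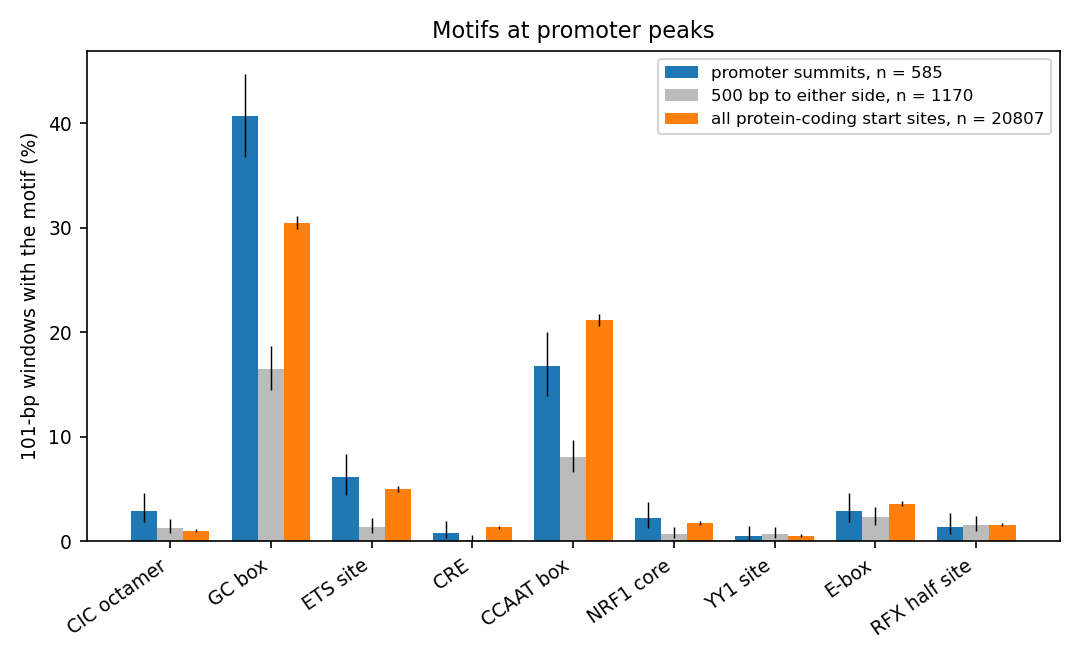
Share of windows of 50 bp on either side with each motif (y, in percent, bars with 95% Wilson intervals) at the 585 promoter summits, in the windows 500 bp to either side, and at all 20807 protein-coding gene starts. The octamer bar is 2.91% at promoter summits against 1.00% of gene starts, while the GC box bar is 40.7% against 30.5%.

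The members were then looked up in the lists for WT and 154Q mice. All 3 lists were called against the same CIC KO libraries, so the shares below are set side by side and were not tested. The WT list held 4495 peaks on these chromosomes and the 154Q list 1660 after its repeat filter, so the lists offer unequal numbers of sites to overlap. Of the 860 peaks, 600 (69.8%, 66.6 to 72.7%) overlapped a WT peak by at least 1 bp, and 406 (47.2%, 43.9 to 50.6%) contained a 154Q summit. Outside repeats the shares were 71.2% (68.0 to 74.2%) and 49.6% (46.2 to 53.1%). There, 383 were in both and 213 in neither. All 100 highest peaks outside repeats were also in the WT list, and 91 of them were in the 154Q list. The 9 that were not include the promoters of Uqcrq, Lsm14b, Phf12, the zinc finger factor Maz, Pnkd and Hdgfl2.

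**Figure D5:**
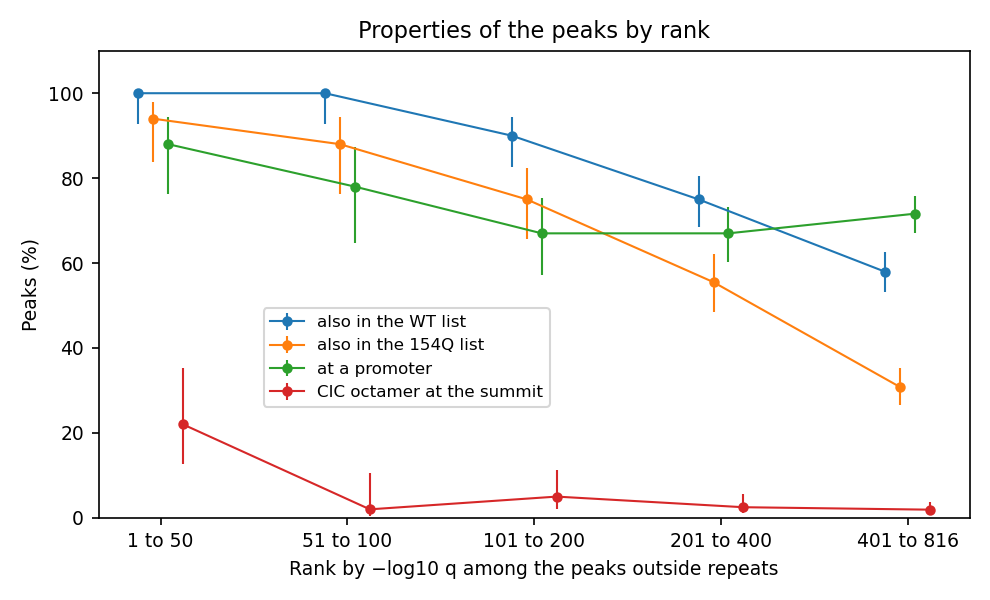
Share of peaks outside repeats (y, in percent, points with 95% Wilson intervals) that were also in the WT list, contained a 154Q summit, lay at a promoter or held the octamer, by rank of −log10 q (x, from 1 to 816). The share also in the 154Q list falls from 94% of the 50 highest to 30.8% of the last bin, and the octamer share from 22% to 1.92%.

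The overlap fell along the ranking. The share in the WT list was 100% for the 50 highest and 57.9% (53.1 to 62.6%) for the 416 lowest, and that in the 154Q list was 94% and 30.8% (26.5 to 35.4%). The promoter share was 88% and 78% in the first 2 bins, 67% in each of the next 2 and 71.6% in the last, so it did not fall throughout. At the 581 peaks outside repeats that were also in the WT list, the median fold enrichment was 3.17 here and 3.87 there, and the WT value was the higher at 452. Each WT value is that of the highest-ranked overlapping WT peak at its own summit. The 2 summits can therefore differ, and the same WT peak can be set against several peaks here, as at Usp29. Among the 100 highest the medians were 4.12 and 5.47. At Spred1 the values were 8.92 and 16.0, at the distal chromosome 11 site 5.83 and 10.8, at Etv5 4.58 and 5.90, and at Spry4 4.29 and 6.32. Ung went the other way, at 4.13 and 3.22. The merged libraries hold 3 animals here and 4 for WT, the methods give an approximate read number per library but the fragments behind each merged list are unknown, and the part of either in these differences was not tested.

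Of the 19 peaks of listed targets, 17 were also in the WT list and 18 contained a 154Q summit. The one in neither was the weaker Dusp5 peak, of 19 fragments. Peaks in neither other list were weak. The 213 outside repeats had a median pileup of 21 fragments and a highest −log10 q of 7.43, and 131 were at promoters (61.5%, 54.8 to 67.8%). The 383 in both lists had a median pileup of 32 fragments, and 293 were at promoters (76.5%, 72.0 to 80.5%). The 8 highest outside repeats in neither list were in an intron of Cdyl (28 fragments, fold 4.62), at the Cic coding exon, at the promoters of Phip and Tmem42, in introns of Aatk and Pxn, and between genes near Gm37404 and Olfr750.

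Peaks were spread over all 19 autosomes. Chromosome 7 held the most, 104, and chromosome 11 held 83, that is 7.15 and 6.80 per 10 Mb, while chromosome 3 had 1.62. Per 100 protein-coding genes the range was narrower, from 2.59 on chromosome 3 to 5.48 on chromosome 8. The distribution along the genome was thus more even when counted by genes than by length.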

How the data were processed

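The authors merged the CIC CUT&RUN alignments of each genotype (3 animals for 154Q[V591A;S602D], 4 for CIC KO) and called peaks at q = 0.05 in paired-end mode, after keeping fragments under 120 bp. Their processing notes name Trimmomatic 0.36, Bowtie2 2.3.4.1, SAMtools 1.10, bedtools 2.29.1, MACS3 and the build mm10 (GRCm38). Each deposited peak line gives a fold enrichment (a ratio), a −log10 p and −log10 q, and a summit offset in bp. The deposited lists carry no counts per animal, so the number of fragments behind each list is unknown (the methods give only an approximate read number per library) and no test between groups was possible. Their methods describe leaving out peaks with more than 50% repeat overlap, yet such peaks remained in this list and the WT list, and only the 154Q list was deposited with repeats removed.

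Summit lines were collapsed by peak number, keeping the summit with the highest −log10 q. The whole fragment pileup and the background that give both deposited values were found with a Poisson tail, and 857 of 860 matched within 0.001. The control is scaled to the treatment by the peak caller. Start sites, gene bodies and exons came from GENCODE M21 basic, and sequence and soft-masking from the RefSeq copy of GRCm38. Wilson intervals used scipy 1.17.1, tables pandas 2.3.3 and sequence access pysam 0.24.0. Methods were tested on simulated data. Alternatives changed thresholds, distances, motif windows, overlap rules and the repeat filter.

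Named genes are those at the highest peaks overall and of each class, in the gene lists, in peaks found in neither other list, with 3 or more peaks, or with an octamer among the 100 highest. Others (Rasgef1c, Prcc, Zbed4, Mir22hg, promoters absent from the 154Q list, and the divergent pairs and genes of the closing word counts) were chosen after their values were seen. Repeat peaks are described by position alone, since 7 of the 8 highest intergenic peaks were repeats. The splits outside repeats by rank were chosen after seeing the data. The members and gene lists were chosen with earlier results of these data known. The H3K27ac and IgG samples were not analysed here. A few genes and a sequence are not reported here.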

Additional observations from a re-analysis of the deposited data

How the results depend on the processing

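No paired analysis was possible because replicates were merged before peak calling, and for the same reason no animal could be left out in turn. A count was taken as moved when it differed from the reported one by more than 1.5 times, and a share or median when it left the 95% interval of the reported one. By that measure 18 of the recomputed values moved and 19 did not. With q below 0.001 the list held 422 peaks and 417 genes, the octamer share was 5.21%, and the shares also found in the WT and 154Q lists, with the same threshold in those lists, were 78.0% and 58.8%. With a fold enrichment of at least 4 it held 100 peaks and 96 genes, 6 of the listed targets, and an octamer share of 13.0%. The promoter share was 60.7% within 500 bp, 73.0% within 2 kb, 64.5% with protein-coding start sites alone and 71.3% without repeat peaks. The octamer share was 1.63% within 25 bp, 5.58% within 100 bp and 6.74% over the whole peak. A reciprocal overlap of 50% gave 40.7% also in the WT list, and a 154Q summit within 100 bp of the best summit gave 43.8%. Wider windows and thresholds that keep fewer peaks change these counts by construction, and beyond that the cause was not tested. Peaks of 18 to 25 fragments limit what can be said of the lower part of the list.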

Other observations

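The printed sequences share letters that the octamer search covered only in part, and the following values were obtained after those sequences had been seen. The word CATTCATAA begins with CATTCA, which also ends the octamers TCCATTCA and TTCATTCA, so the word and the octamer can overlap. The 9 letters CATTCATAA, on either strand, were within 50 bp of the summit at 9 of the 100 highest peaks outside repeats (9%, 95% Wilson interval 4.81 to 16.2%), in none of 200 flanking windows (up to 1.88%), at 2 of the other 716 peaks (0.279%) and at 13 of 20807 protein-coding gene starts (0.0625%). The 9 peaks were those at the promoters of Spry4, Dusp4, Gpr3, Maff, Spred2 and Kcnb2, at the promoter shared by Pip4k2b and Mir8102, in the Spred1 intron and at the distal chromosome 8 site. In 6 of the 11 peaks with these letters over the list, no octamer lay within 50 bp of the summit. The windows at the distal chromosome 8 site (chr8:125317738-125317838) and at the Gpr3 promoter (chr4:133212623-133212723), neither with an octamer at its summit, are shown with the 9 letters in capitals. Because the letters were picked from these same peaks, the counts describe them and test nothing.
Distal chromosome 8: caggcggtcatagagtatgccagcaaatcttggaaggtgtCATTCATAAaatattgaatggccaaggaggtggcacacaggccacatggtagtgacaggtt
Gpr3 promoter: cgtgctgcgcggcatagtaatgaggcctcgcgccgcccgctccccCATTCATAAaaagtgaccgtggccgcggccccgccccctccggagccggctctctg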
